A study of Equus caballus with 15 samples.

Results

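Transcripts of MYC and of genes that build ribosomes were followed in equine monocyte-derived macrophages. The set holds 45 gene symbols: MYC and 44 nucleolar, rRNA processing and RNA polymerase I genes, found in the files by symbol. The rule itself uses no measured value, but the set was proposed with earlier results of these data known. Of the 45, 42 had a row among the 16932 genes listed, and the 42 were among the 11628 genes tested, whose mean level was 1 CPM (the reads of a gene, scaled to a common library total) or more. NOLC1, POLR1A and WDR43 were not analysed here. The 42 comprised MYC, 5 genes of RNA polymerase I transcription, 8 genes of small nucleolar ribonucleoproteins (snoRNP), 5 abundant nucleolar proteins, 10 genes of small subunit assembly and 13 of large subunit assembly. The word abundant is a label of the role and not a measured level. NCL and NPM1 averaged 764 and 554 CPM, while DDX21, GNL3 and LYAR averaged 85.0, 64.5 and 30.1 CPM.

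Ribosomes are made in the nucleolus, where RNA polymerase I transcribes a long rRNA precursor. snoRNP guide chemical modification and cutting of this precursor, and assembly factors join it with ribosomal proteins into a small and a large subunit. MYC is a transcription factor that is rapidly induced by growth signals, and genes of RNA polymerase I, of rRNA processing and of ribosomal proteins are among its best known targets.

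Macrophages were grown from blood mononuclear cells of 2 horses over 5 days with M-CSF at 30 ng/ml, and their poly(A)-selected RNA was read in 3 libraries for each of 5 conditions. Untreated macrophages had no added IL-1ß, IL-1ß macrophages received IL-1ß alone at 10 ng/ml, and the others received the same IL-1ß together with an orthobiologic therapy (OT) as 25% of the medium. The OT were conditioned medium of mesenchymal stromal cells (MSC-CM), PRP lysate, made from platelet rich plasma, and ACS, the autologous conditioned serum, each prepared from 3 donor horses. Treatment lasted 24 h and was followed by washing. The sources differ on the RNA: the sample labels place lysis after the wash, and the study's methods place a further 24 h of culture between them, so the levels may be those of cells at the end of treatment or after its removal. By the study's own description the libraries of untreated and IL-1ß macrophages are technical replicates, so p-values measure the spread between these libraries, which is partly technical. All cultures grew in medium with fetal bovine serum. The IL-1ß cultures received no OT, so their comparison with an OT covers every component of that product and its 25% share of the medium.

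Between 28410734 and 47894071 reads were counted on genes per library (median 37215810). The macrophage markers CD68 (1340 to 2157 CPM) and MRC1 (515 to 3394 CPM) were high in the 15 libraries, while the monocyte and macrophage markers CD14 (1.38 to 4.32 CPM) and ITGAM (1.10 to 3.47 CPM) were near the lower end of the tested range. The 6 T cell markers were above 0 in each library, with a summed level of 557 to 1493 CPM, so the cultures held T cell transcripts. In such bulk samples, fewer cells of a type and less RNA per cell cannot be told apart. Of the neutrophil list, MPO, ELANE and LTF did not exceed 3.81 CPM, while CSF3R, the receptor of a granulocyte growth factor, lay between 268 and 759 CPM.

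IL-1ß replicate 3 and PRP lysate replicate 1 stood apart from the other libraries on the first principal component of all genes, which carried 55.4% of the variance, with scores of -103 and -51.7. MSC-CM replicate 1 followed at -20.7, and the other 12 libraries lay between -8.15 and 26.6. The members in these libraries moved with the span of the gene on the chromosome. Set against the other 2 libraries of its condition, IL-1ß replicate 3 had a median log2 difference of 0.67 over the 14 members of the shortest span (0.493 to 9.04 kb) and -0.35 over the 14 of the longest (25.8 to 275 kb). For PRP lysate replicate 1 these medians were 0.26 and -0.41. The Spearman rho of difference and span across the 42 members was -0.57, -0.54 and -0.52 in IL-1ß replicate 3, PRP lysate replicate 1 and MSC-CM replicate 1, against -0.45, -0.41 and -0.43 across the 11628 genes, which are not independent replicates. The study reports high RNA integrity by bioanalyzer for all samples, without a value per library. RNA quality was not tested as a part of this pattern.

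**Figure D1:**
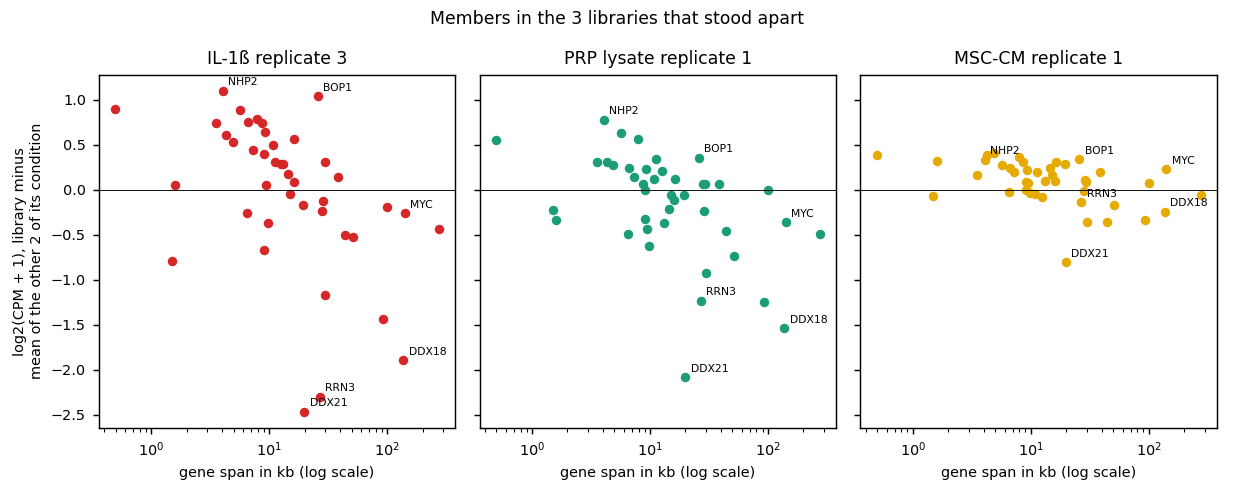
Difference in log2(CPM + 1) between a library and the mean of the other 2 libraries of its condition (y axis) for the 42 members against gene span in kb (x axis, log scale), with 1 panel for each of the 3 libraries that stood apart. Members of long span tended to lie below 0 and members of short span above it in IL-1ß replicate 3 and PRP lysate replicate 1, and the scatter was smallest in MSC-CM replicate 1.

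The RNA helicases DDX21 and DDX18 and the RNA polymerase I initiation factor RRN3 showed the largest gaps in IL-1ß replicate 3. DDX21 measured 104.5, 65.3 and 14.1 CPM in IL-1ß replicates 1, 2 and 3, and 28.3, 121 and 126 CPM in the PRP lysate replicates. DDX18 measured 59.7, 54.5 and 14.6 CPM with IL-1ß, and RRN3 measured 43.6, 32.9 and 6.88 CPM. In each of these genes IL-1ß replicate 3 was the lowest of the 15 libraries. NHP2, a small protein of the H/ACA snoRNP, went the other way, with 68.8, 94.4 and 174 CPM, as did BOP1, a large subunit factor, with 62.4, 80.5 and 147 CPM. IL-1ß replicate 3 was the lowest of the 15 libraries for 15 members and the highest for 8. Every comparison was therefore also made without these 3 libraries, a choice made after seeing the data.

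The members had their highest levels with PRP lysate. Their summed level was 4243 to 4717 CPM in the 3 PRP lysate libraries, 3843 to 3973 CPM with ACS, 3318 to 3846 CPM with MSC-CM, 3394 to 3744 CPM with IL-1ß alone and 3517 to 3621 CPM in untreated macrophages. The PRP lysate libraries did not overlap those of any other condition in this sum. Without NCL and NPM1, which give much of it, the sum was 2777 to 3056 CPM with PRP lysate and 2142 to 2605 CPM in the other 12 libraries, so the order did not rest on these abundant transcripts.

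PRP lysate gave the highest condition mean for 29 of the 42 members (69.0%), against 16.6% of all genes tested. ACS did so for 6, untreated for 4, IL-1ß for 3 and MSC-CM for 0. PRP lysate gave the lowest mean for 0 members, and IL-1ß alone gave it for 19 (45.2%, against 39.8% of all genes). With RLE size factors or TMM factors, PRP lysate was highest for 28 and 29 members, and without the 3 libraries that stood apart for 38 (90.5%, against 22.8% of all genes).

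**Figure D2:**
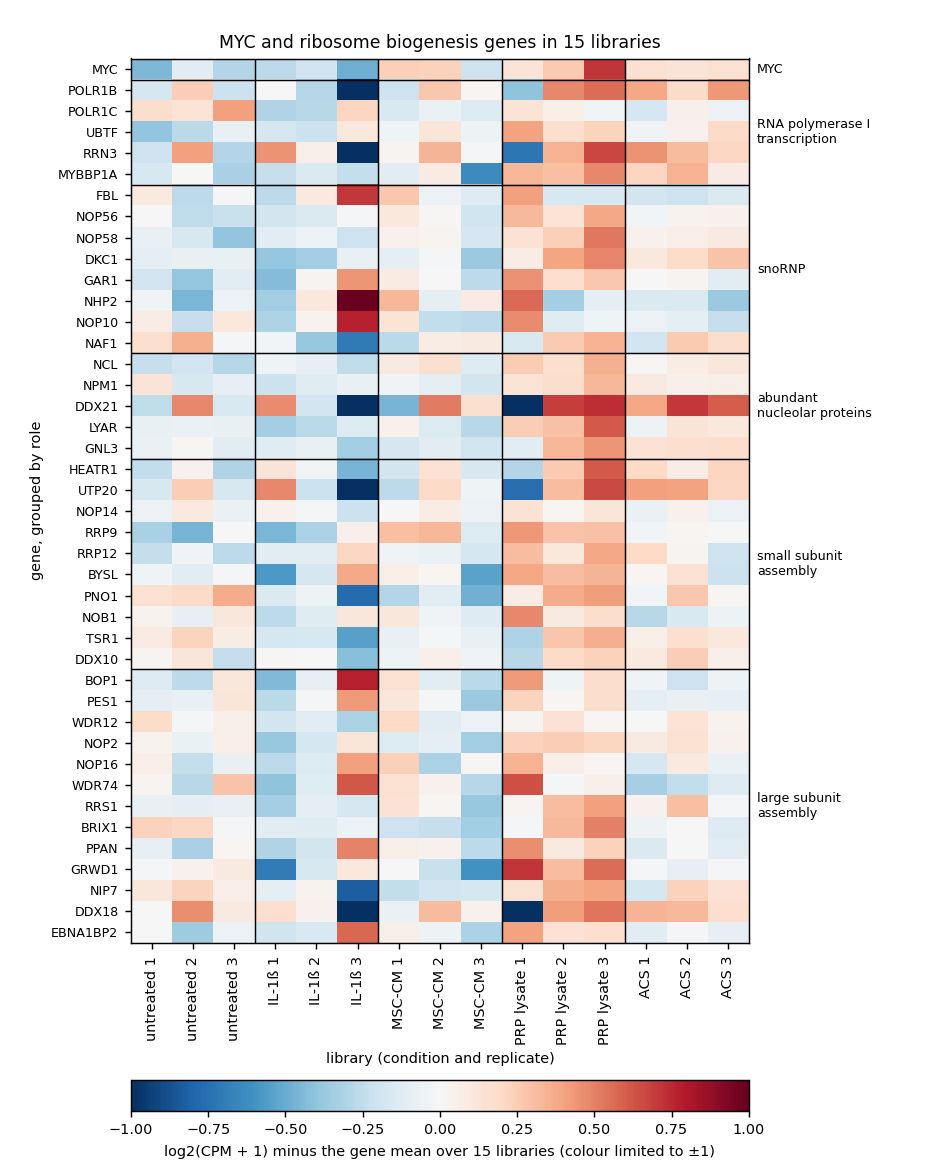
Level of each of the 42 members (rows, grouped by role) in the 15 libraries (columns, grouped by condition), as log2(CPM + 1) minus the gene's mean over the 15 libraries, with the colour limited to ±1. PRP lysate replicates 2 and 3 were above the mean for most members, and IL-1ß replicate 3 and PRP lysate replicate 1 held both the highest and the lowest values of their condition.

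By role, the mean centred level of PRP lysate replicates 2 and 3 was above 0 in each of the 6 roles, with values from 0.07 to 0.72 on the log2 scale. PRP lysate replicate 1 differed by role. It was at 0.29 for the snoRNP genes and 0.20 for large subunit assembly, but at -0.05 for RNA polymerase I transcription and -0.17 for the abundant nucleolar proteins. The ACS libraries stayed between -0.06 and 0.23 in each role.

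MYC itself was listed as ENSECAG00000022059 on chromosome 9 at 71418315 to 71559306 of EquCab3.0. It measured 31.8, 40.4 and 35.5 CPM in untreated macrophages, 36.4, 38.0 and 30.9 CPM with IL-1ß, 51.9, 51.6 and 37.8 CPM with MSC-CM, 48.0, 52.7 and 72.7 CPM with PRP lysate, and 48.9, 48.1 and 48.8 CPM with ACS. All PRP lysate and ACS libraries lay above all IL-1ß and untreated libraries, and the MSC-CM libraries overlapped both sets. The means were 35.9 ± 4.33 CPM (untreated), 35.1 ± 3.74 CPM (IL-1ß), 47.1 ± 8.07 CPM (MSC-CM), 57.8 ± 13.1 CPM (PRP lysate) and 48.6 ± 0.439 CPM (ACS) (SD, n = 3 each). From highest to lowest mean the order was PRP lysate, ACS, MSC-CM, untreated and IL-1ß, and the libraries of each pair of neighbours overlapped. The gap between MSC-CM and untreated was larger than the SD of either and was not among the comparisons tested.

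**Figure D3:**
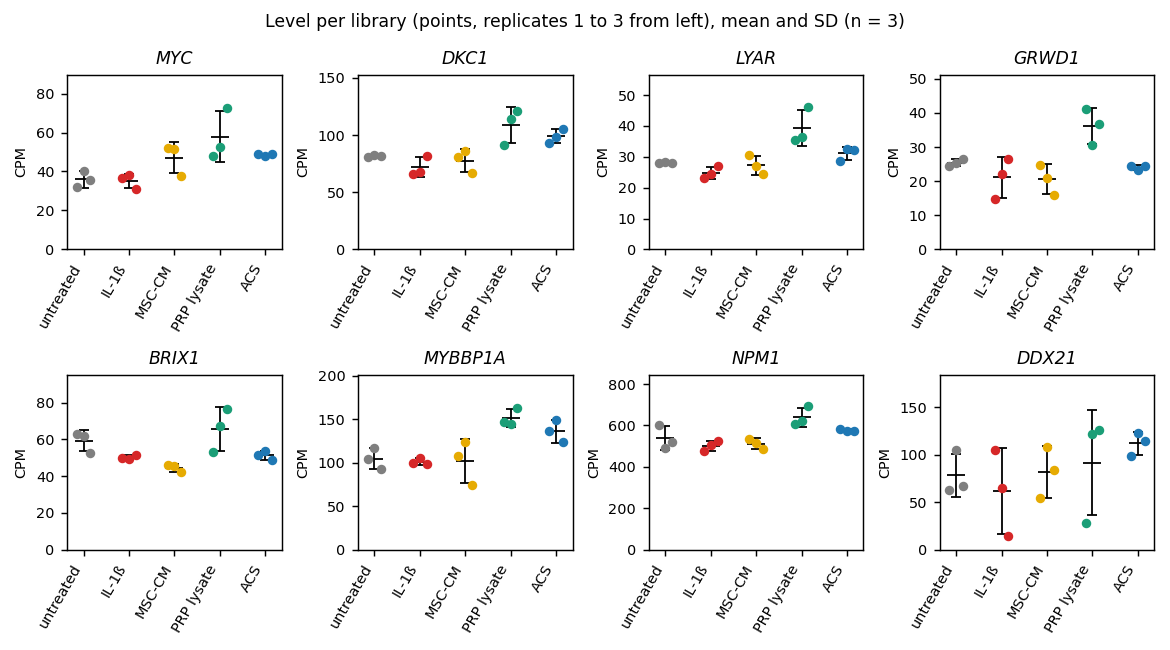
CPM per library (points, y axis from 0) of MYC and 7 ribosome biogenesis genes in the 5 conditions (x axis), with the mean and SD of 3 libraries as a line and bars. The 3 PRP lysate points of MYC, DKC1, LYAR, GRWD1, BRIX1, MYBBP1A and NPM1 lay above the 3 IL-1ß points, while those of DDX21 ran from 28.3 to 126 CPM.

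The comparison of PRP lysate with IL-1ß alone asks what the lysate added to activated macrophages. MYC and 3 ribosome biogenesis genes rose, and 0 members fell. The 4 genes that rose make 9.52% of the 42 members, against 1.93% of all genes called higher. MYC rose by a log2 fold change of 0.69 ± 0.18 (SE, limma adjusted p = 0.0431). Fold changes are differences of mean log2(CPM + 1), which understate those of genes with few CPM.

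DKC1, the pseudouridine synthase of the H/ACA snoRNP (chromosome X, 127254817 to 127267898), measured 65.8, 67.7 and 81.7 CPM with IL-1ß and 91.0, 114 and 121 CPM with PRP lysate. The groups did not overlap, and the log2 fold change was 0.59 ± 0.14 (SE, limma adjusted p = 0.0303). LYAR, a nucleolar protein that takes part in rRNA processing (chromosome 3, 114377286 to 114391895), measured 23.2, 24.5 and 27.0 CPM with IL-1ß and 35.4, 36.5 and 46.0 CPM with PRP lysate. This was a log2 fold change of 0.63 ± 0.14 (SE, limma adjusted p = 0.0202), the smallest adjusted p of the members. GRWD1, a chaperone of a large subunit protein (chromosome 10, 18785174 to 18790083), measured 14.8, 22.0 and 26.6 CPM with IL-1ß and 41.0, 30.7 and 36.9 CPM with PRP lysate. It had the largest log2 fold change of the members here, 0.78 ± 0.21 (SE, limma adjusted p = 0.0494).

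The other 38 members did not pass the test. Among RNA polymerase I genes the smallest adjusted p belonged to MYBBP1A, a nucleolar regulator of rRNA synthesis, with 99.6, 105 and 99.0 CPM for IL-1ß and 147, 144 and 163 CPM for PRP lysate (log2 difference 0.57, limma adjusted p = 0.0699). In small subunit assembly it belonged to PNO1, which binds the late small subunit precursor, with 47.3 ± 11.9 and 71.5 ± 9.19 CPM (SD, n = 3 each, log2 difference 0.61, limma adjusted p = 0.0919). NCL, or nucleolin, measured 734, 715 and 637 CPM with IL-1ß and 904, 845 and 968 CPM with PRP lysate, which also did not overlap (log2 difference 0.38, limma adjusted p = 0.0594). Thus several members outside the 4 had separate groups but not a passing adjusted p.

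The members' direction was broader than the calls. Of the 42, 39 had a higher mean with PRP lysate (92.9%, against 61.2% of all genes), with a median log2 difference of 0.38, against 0.11 over all genes. The PRP lysate libraries lay wholly above the IL-1ß libraries for 17 members (40.5%), against 8.5% of all genes. At an unadjusted p of at most 0.05, 22 members were higher (52.4%), against 9.85% of all genes, and 0 were lower. The 22 became 14 with RLE size factors or TMM factors, 13 with DESeq2 or edgeR and 15 without PRP lysate replicate 3 or with the replicate block, where between 6.73% and 8.44% of all genes were higher, and 7 with only the 2 groups compared (3.65% of all genes). The 3 members with a lower mean were FBL, the methyltransferase of the C/D snoRNP, with a log2 difference of -0.15, and NHP2 and NOP10 of the H/ACA snoRNP, with -0.20 and -0.06. These genes were at their maximum over the 15 libraries in IL-1ß replicate 3. At the 2-fold threshold of the study, 0 members passed, against 3.09% of all genes.

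By role, the median log2 difference was 0.57 for RNA polymerase I transcription, 0.41 for the abundant nucleolar proteins, 0.37 for small subunit assembly, 0.34 for the snoRNP genes and 0.27 for large subunit assembly. The range within a role was widest in the snoRNP genes, from -0.20 (NHP2) to 0.59 (DKC1). Small subunit factors ran from 0.16 to 0.61 and large subunit factors from 0.09 to 0.78, with each of their 23 genes above 0.

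The count of 4 depended on scaling and on single libraries. It was 0 with RLE size factors and with TMM factors (smallest limma adjusted p of a member 0.0551 and 0.0515). Shares of all genes in this paragraph cover both directions, with 5.10% and 5.07% called in these 2 fits, against 4.94% as reported. With a pseudocount of 0.1 or no filter on low values the count of members was 3, without GRWD1 (4.86% and 3.27% of all genes). The count was 0 when IL-1ß replicate 1, IL-1ß replicate 2 or PRP lysate replicate 3 was left out (5.49%, 3.14% and 3.04% of all genes), 1 without PRP lysate replicate 2 (3.22%), 6 without IL-1ß replicate 3 (5.59%), 7 without PRP lysate replicate 1 (6.87%), and 14 without the 3 libraries that stood apart, where 10.1% of all genes were called. On recovered reads, edgeR called 0 members (3.85% of all genes) and DESeq2 called LYAR, MYC, NIP7 and PNO1 (6.45% of all genes). The 14 without those libraries were BRIX1, BYSL, DKC1, GNL3, GRWD1, LYAR, MYC, NOP2, NOP58, NPM1, POLR1B, RRP9, RRS1 and TSR1, and in that fit the log2 fold change was 0.81 for DKC1 (limma adjusted p = 0.0016) and 0.72 for MYC (limma adjusted p = 0.0222).

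**Figure D4:**
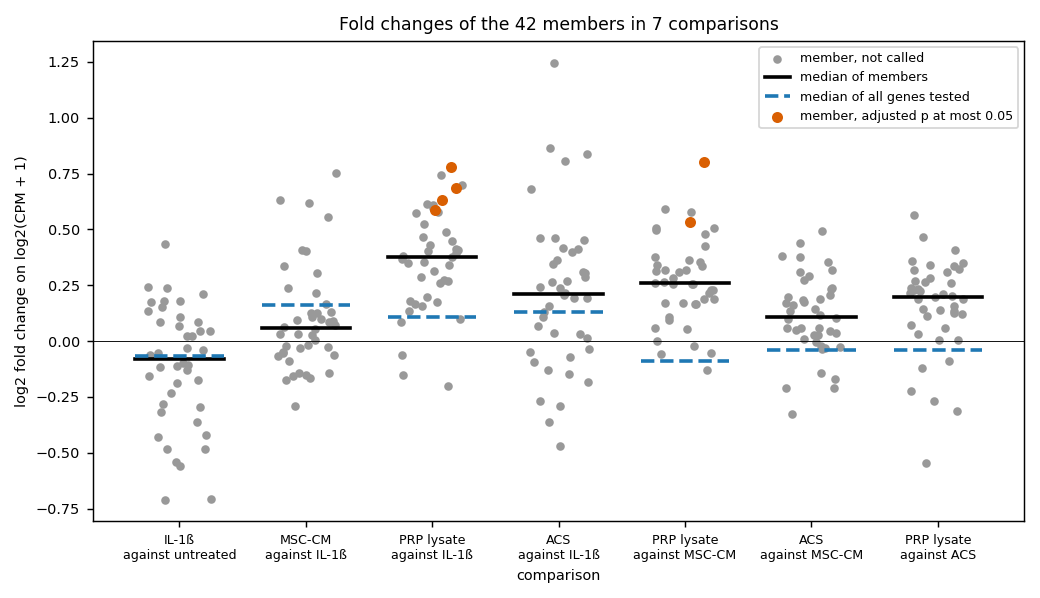
Log2 fold change on the log2(CPM + 1) scale (y axis) of the 42 members in 7 comparisons (x axis), with orange points for members at an adjusted p of at most 0.05 and lines for the median of the members (solid) and of the 11628 genes (dashed). The median of the members was 0.38 for PRP lysate against IL-1ß and 0.26 for PRP lysate against MSC-CM, where the medians of all genes were 0.11 and -0.09.

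PRP lysate was next set against MSC-CM, both in the presence of IL-1ß. This comparison shares the PRP lysate libraries with the preceding one. The large subunit factors BRIX1 and GRWD1 rose, which is 4.76% of the members, against 1.44% of all genes called higher. BRIX1 (chromosome 21, 31200605 to 31210101) measured 46.1, 45.5 and 42.1 CPM with MSC-CM and 53.0, 67.4 and 76.5 CPM with PRP lysate, a log2 fold change of 0.53 ± 0.14 (SE, limma adjusted p = 0.0491). GRWD1 measured 24.6, 21.0 and 15.9 CPM with MSC-CM, a log2 fold change of 0.80 ± 0.21 (SE, limma adjusted p = 0.0480). In both genes the lowest PRP lysate library lay above the highest MSC-CM library.

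MYC, with a log2 difference of 0.28 ± 0.18 (SE, limma adjusted p = 0.574), overlapped between PRP lysate and MSC-CM. In the other roles the smallest adjusted p belonged to LYAR (log2 difference 0.51, limma adjusted p = 0.0651), MYBBP1A (0.59, limma adjusted p = 0.0662), DKC1 (0.48, limma adjusted p = 0.0860) and PNO1 (0.58, limma adjusted p = 0.125). These 4 had groups that did not overlap, as had 19 members in all (45.2%), against 7.24% of all genes. Of the 42, 38 had a higher mean with PRP lysate (90.5%, against 37.6% of all genes), and the median log2 difference was 0.26, against -0.09. At an unadjusted p of at most 0.05, 14 members were higher (33.3%, against 5.1% of all genes), and at the 2-fold threshold 0 passed, against 2.61%. The 14 became 8 without MSC-CM replicate 3, without PRP lysate replicate 3 or with the replicate block, against 3.64%, 4.24% and 3.86% of all genes.

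With RLE size factors or TMM factors the 2 members called were BRIX1 and PNO1, with no filter on low values BRIX1 alone, and with edgeR PNO1 alone, so the call of GRWD1 was lost in each of these. DESeq2 called 8 members, BRIX1 and GRWD1 among them. Same-numbered libraries of PRP lysate and MSC-CM deviated together, and with a replicate block the count was 0 in the fit of 12 numbered libraries and 1 (GRWD1, limma adjusted p = 0.0396) in a fit of these 2 conditions. The count was 12 without the 3 libraries that stood apart, where 12.95% of all genes were called, 4 without PRP lysate replicate 1 (6.04% of all genes), 1 without MSC-CM replicate 2 (2.91%, MYBBP1A), and 0 without any other single library of the 2 conditions.

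ACS against IL-1ß gave 0 members called, against 3.45% of all genes. The values of MYC did not overlap, with a log2 difference of 0.46 ± 0.18 (SE, limma adjusted p = 0.181). DKC1, at 93.1, 98.1 and 105 CPM with ACS, had the smallest adjusted p (log2 difference 0.46, limma adjusted p = 0.101). It was the member called when the 3 libraries that stood apart were left out, with a log2 fold change of 0.56 (limma adjusted p = 0.0140).

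The smallest p of the remaining roles belonged to POLR1B, a large subunit of RNA polymerase I, at 31.9 ± 2.88 against 18.3 ± 8.0 CPM, GNL3, or nucleostemin, at 71.6 ± 0.738 against 56.4 ± 5.70 CPM, TSR1, a small subunit factor, at 86.3 ± 3.14 against 65.6 ± 9.45 CPM, and WDR12, which acts with BOP1 and PES1 in large subunit assembly, at 63.6 ± 3.28 against 52.9 ± 3.74 CPM (SD, n = 3 each). Their limma adjusted p-values were 0.168, 0.205, 0.209 and 0.243. POLR1B was the 1 member called when IL-1ß replicate 1 was left out, where 10.1% of all genes were called.

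The members were higher with ACS in 31 of 42 (73.8%, against 60.5% of all genes), with a median log2 difference of 0.21, against 0.13. The ACS libraries lay wholly above the IL-1ß libraries for 15 members (35.7%), against 14.9% of all genes. Those higher at an unadjusted p of at most 0.05 numbered 9 (21.4%), against 12.1% of all genes. This count was not stable. It was 1 with RLE size factors, 3 with TMM factors and 1 with DESeq2 or edgeR, where 10.7%, 11.2%, 7.67% and 7.77% of all genes were higher, so that the members' share lay below that of all genes. It was 3 without ACS replicate 2 or 3 (7.39% and 6.81% of all genes), 5 without ACS replicate 1 (9.77%), and 4 without IL-1ß replicate 3 (6.08%) or with only the 2 groups compared (6.38%). The members' median was 0.08 with RLE size factors, 0.11 with TMM factors and 0.06 with DESeq2, and without IL-1ß replicate 1 it was 0.15, below the 0.20 of all genes. The medians by role ran from 0.03 for large subunit assembly and 0.05 for the snoRNP genes to 0.42 for RNA polymerase I transcription.

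Between PRP lysate and ACS, 0 members were called, against 0.103% of all genes. MYC had a log2 difference of 0.22 ± 0.18 (SE, limma adjusted p = 0.842). The smallest p of each other role belonged to NOB1, the nuclease that trims the small subunit rRNA (91.8 ± 13.4 against 68.6 ± 5.42 CPM, limma adjusted p = 0.678), GRWD1 (36.2 ± 5.17 against 24.0 ± 0.667 CPM, limma adjusted p = 0.764), and LYAR, NOP56 and UBTF (limma adjusted p = 0.842 for each). NOP56 is a core protein of the C/D snoRNP, and UBTF binds the rRNA genes for RNA polymerase I. Of the 42 members, 36 had a higher mean with PRP lysate (85.7%, against 44.8% of all genes), with a median log2 difference of 0.20, against -0.04. An unadjusted p of at most 0.05 was reached by 5 members that were higher (11.9%), against 1.8% of all genes. That count was 2 to 4 when single libraries were left out, against 1.02% to 3.84% of all genes. The PRP lysate libraries lay wholly above the ACS libraries for 15 members (35.7%), against 6.66% of all genes, though no single member passed the adjusted test.

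ACS against MSC-CM gave 0 members called, against 1.92% of all genes, and 4 that were higher at an unadjusted p of at most 0.05 (9.52%), against 4.74% of all genes, a count that was 0 without ACS replicate 2 or MSC-CM replicate 3 (3.28% and 3.50% of all genes) and 7 with only the 2 groups compared (10.9%). A higher mean with ACS was found for 32 of 42 members (76.2%, against 45.4% of all genes), with a median log2 difference of 0.11, against -0.04, and 11 members lay wholly higher (26.2%, against 12.9%). MYC was nearly level (log2 difference 0.06 ± 0.18, SE, limma adjusted p = 0.937). The smallest p of the other roles belonged to MYBBP1A, DKC1, GNL3, NOP2 and PNO1, with log2 differences of 0.44, 0.35, 0.32, 0.29 and 0.38 and limma adjusted p-values of 0.244, 0.286, 0.349, 0.355 and 0.411. NOP2 is an rRNA methyltransferase of the large subunit.

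MSC-CM against IL-1ß gave 0 members called, against 0.0% of all genes with limma. At an unadjusted p of at most 0.05, MYC and RRP9, a U3 snoRNP protein, were higher (4.76% of members), against 4.9% of all genes. The count of 2 was 0 with RLE size factors, TMM factors, DESeq2, edgeR, the replicate block or only the 2 groups compared, and without MSC-CM replicate 1 or 2, where 1.38% to 6.23% of all genes were higher, and it was 3 without MSC-CM replicate 3 (2.43%). MYC had a log2 difference of 0.40 ± 0.18 (SE, limma adjusted p = 0.705), with MSC-CM replicate 3 inside the IL-1ß range. RRP9 measured 14.01, 15.6 and 20.4 CPM with IL-1ß and 24.4, 24.9 and 17.8 CPM with MSC-CM, which overlapped as well. In the other roles the smallest p belonged to WDR12 (61.7 ± 7.47 against 52.9 ± 3.74 CPM), POLR1B (25.7 ± 4.41 against 18.3 ± 8.0 CPM), NAF1, which assembles H/ACA snoRNP (19.9 ± 2.83 against 15.8 ± 3.92 CPM), and NCL (783 ± 81.0 against 695 ± 51.6 CPM) (SD, n = 3 each, limma adjusted p = 0.705 for each). The median log2 difference of the members was 0.06 on CPM, -0.11 with RLE size factors and -0.08 with TMM factors, so it has no stable direction. The median of all genes shifted from 0.16 to 0.00 with RLE size factors.

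IL-1ß against untreated gave 0 members called, against 0.387% of all genes. MYC was level, with a log2 difference of -0.03 ± 0.18 (SE, limma adjusted p = 0.940). At an unadjusted p of at most 0.05, 5 members were lower with IL-1ß (11.9%), against 6.5% of all genes: PNO1, NAF1, TSR1, WDR12 and POLR1C, a subunit shared by RNA polymerases I and III. This count was 3 without untreated replicate 2 or 3 (4.14% and 3.92% of all genes), 1 with the replicate block (4.22%) or only the 2 groups compared (3.21%), and 0 with both (2.61%). PNO1 had the smallest p of these, with 64.7, 66.4 and 75.4 CPM in untreated and 52.4, 55.9 and 33.7 CPM in IL-1ß macrophages (log2 difference -0.56, limma adjusted p = 0.236). NAF1 measured 22.9, 26.2 and 20.2 against 19.9, 15.4 and 12.1 CPM (log2 difference -0.54, limma adjusted p = 0.303), WDR12 64.5 ± 4.54 against 52.9 ± 3.74 CPM (limma adjusted p = 0.349), and POLR1C 40.5 ± 4.46 against 31.6 ± 6.88 CPM (SD, n = 3 each, limma adjusted p = 0.340). Of the abundant nucleolar proteins, LYAR had the smallest p, with 28.2 ± 0.138 against 24.9 ± 1.93 CPM (SD, n = 3 each, limma adjusted p = 0.588). The medians of the members and of all genes were -0.08 and -0.07. Without IL-1ß replicate 3, which stood apart, they were -0.11 and 0.06, with opposite signs. Without the 3 libraries that stood apart, POLR1C was called lower with IL-1ß, with a log2 fold change of -0.53 (limma adjusted p = 0.0407).

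Lists of related genes were read from the same fit. Of 103 other ribosome biogenesis factors, 2 rose with PRP lysate against IL-1ß and 0 fell: UTP4, a small subunit processome protein (log2 fold change 0.52, limma adjusted p = 0.0437), and the RNA helicase DDX24 (0.43, limma adjusted p = 0.0360). A count of 2 in 103 is near the 1.93% of all genes called higher. Their median log2 difference was 0.30, against 0.11 over all genes. Of 28 other RNA polymerase I and III genes, TAF1D, a part of the RNA polymerase I promoter factor, rose (0.77, limma adjusted p = 0.0229), with a list median of 0.14. None of these 2 lists' genes was called in the other 6 comparisons. In sum, the other biogenesis factors measured 6363 to 6680 CPM with PRP lysate and 5434 to 6136 CPM in the other 12 libraries.

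The structural proteins of the ribosome were read beside the members. Of 65 cytosolic ribosomal protein genes tested, 0 were called in any of the 7 comparisons, and their median log2 difference for PRP lysate against IL-1ß was -0.28, with -0.14 against MSC-CM and 0.30 against ACS. Their sum ran from 34639 to 73366 CPM with IL-1ß, from 31458 to 56039 CPM with PRP lysate and from 32023 to 32307 CPM with ACS, with a wide spread in the conditions that hold IL-1ß replicate 3 and PRP lysate replicate 1. These genes have many near-identical processed copies, which makes their counts uncertain.

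Of 33 metabolic and growth targets of MYC, 3 rose with PRP lysate against IL-1ß and 1 fell. ODC1, which makes polyamines, rose from 112 ± 22.5 to 232 ± 43.5 CPM (SD, n = 3 each, log2 fold change 1.05, limma adjusted p = 0.00229). EIF4E, the cap-binding initiation factor, rose by 0.92 (limma adjusted p = 0.00892) and RCC1, a chromatin-bound exchange factor, by 0.57 (limma adjusted p = 0.0264). SLC3A2, an amino acid transporter subunit, went from 483 ± 74.5 to 303 ± 33.9 CPM (log2 fold change -0.66, limma adjusted p = 0.0102). The list thus did not move in 1 direction.

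EIF4E was also called higher and SLC3A2 and SHMT2 lower in ACS against IL-1ß and in ACS against MSC-CM. PRP lysate against MSC-CM gave ODC1 and EIF4E higher and SHMT2 and SLC3A2 lower, with 2 genes in each direction. SHMT2, a mitochondrial enzyme of serine metabolism, rose with IL-1ß against untreated, from 195 ± 32.5 to 329 ± 43.5 CPM (SD, n = 3 each, log2 fold change 0.75, limma adjusted p = 0.0495). Of the 9 MYC and MAX network genes tested and the 18 cell cycle genes tested, 0 were called in the 7 comparisons, and their medians for PRP lysate against IL-1ß were -0.06 and 0.19.

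Marker levels of other cells also differed between the libraries, and their part in the members' levels was not tested. Of the 6 T cell markers, 0 were called in any comparison. Their sum was 743 to 1493 CPM with PRP lysate, 772 to 1431 CPM with IL-1ß, 1066 to 1130 CPM with MSC-CM, 670 to 830 CPM with ACS and 557 to 799 CPM in untreated macrophages. The mean centred log2 level of the 42 members was 0.10, 0.20 and 0.33 in PRP lysate replicates 1, 2 and 3. The T cell sums of these libraries were 1493, 743 and 868 CPM. The markers of the list did not run alike in them, with CD3E at 507, 172 and 209 CPM and CD28 at 51.8, 124 and 109 CPM.

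**Figure D5:**
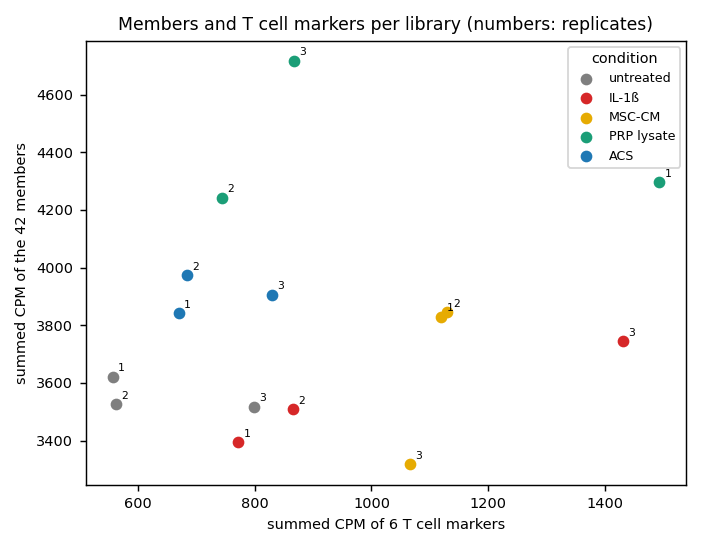
Summed CPM of the 42 members (y axis) against summed CPM of 6 T cell markers (x axis) in the 15 libraries, coloured by condition and numbered by replicate. The 3 PRP lysate libraries had the highest member sums, 4243 to 4717 CPM, at T cell sums from 743 to 1493 CPM, and IL-1ß replicate 3 had a T cell sum of 1431 CPM at a member sum of 3744 CPM.

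Of the 5 NK cell markers, GZMA was higher with PRP lysate than with IL-1ß (159 ± 29.3 against 84.6 ± 21.4 CPM, SD, n = 3 each, limma adjusted p = 0.0374), and the sum of the list ran from 360 to 807 CPM with PRP lysate and from 247 to 514 CPM with IL-1ß. NCR1, a defining NK cell gene, lay between 0.752 and 6.83 CPM over the 15 libraries. Of the 10 macrophage markers, CD163, AIF1 and FCER1G fell with PRP lysate against IL-1ß, CD163 from 563 ± 173 to 11.4 ± 3.48 CPM (SD, n = 3 each). Their sum was 2611 to 4862 CPM with PRP lysate and 4632 to 7267 CPM with IL-1ß. The platelet genes GP9 and GP1BA stayed at or below 0.294 CPM in each library, including those given PRP lysate.

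Of the other marker lists, the endothelial sum was 63.1 to 103 CPM with PRP lysate and 253 to 518 CPM with IL-1ß, mostly PECAM1, which macrophages also express and which fell (63.7 ± 13.4 against 400 ± 137 CPM, SD, n = 3 each, limma adjusted p = 0.000694). The median log2 difference of the 4 endothelial genes tested was 0.35, opposite in sign to the change of the sum. The more specific endothelial genes VWF, KDR and CDH5 did not exceed 0.226, 2.83 and 12.7 CPM. The neutrophil sum, mostly CSF3R, was 486 to 546 CPM with PRP lysate, 530 to 759 CPM with ACS and 309 to 391 CPM with IL-1ß. CSF3R was called higher with ACS (log2 fold change 0.93, limma adjusted p = 0.0143) and had a log2 difference of 0.62 with PRP lysate (limma adjusted p = 0.0680), both against IL-1ß. The stromal sum was 10.4 to 18.6 CPM with PRP lysate and 4.05 to 9.81 CPM with IL-1ß, with 0 genes called, and the B cell sum overlapped between these conditions, with highest values of 28.2 and 47.6 CPM and 0 genes called. The endothelial, neutrophil and stromal sums did not overlap between PRP lysate and IL-1ß, and their part in the members' differences was not tested.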

How the data were processed

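RNA of equine monocyte-derived macrophages was measured in 15 libraries. The authors deposited CPM per gene, produced in Partek Flow after trimming with cutadapt, alignment to EquCab3.0 with STAR 2.7.3 and counting with HTSeq. The strand setting of the counting is not given in the sources used here, so counts of overlapping genes are uncertain. Counts of genes with near-identical copies, such as NPM1 and the ribosomal proteins, are uncertain as well. Listed CPM summed to 982495 to 991421 per library. All columns matched a sample (0 left over). Whole reads were recovered for 100% of values above 0 (tolerance 0.05 reads) and served DESeq2 and edgeR as alternatives.

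limma with an intensity trend was fitted to log2(CPM + 1) of the 11628 genes averaging 1 CPM or higher, with the 5 conditions and no replicate block. p-values were adjusted by Benjamini-Hochberg within each of 7 comparisons over all genes, and a gene was called at an adjusted p of at most 0.05 at any fold. The members and the gene lists were chosen with earlier results of these data known. MYC, each member called and, in a role without a call, the member with the smallest p are named, and up to 3 called genes of each list. Other members named were chosen after their values were seen. Same-numbered libraries of PRP lysate and MSC-CM had deviations that correlated at 0.63, 0.26 and 0.42, so the blocked counts are given for this comparison. Both replicate 1 libraries stood apart along gene span, and whether the numbers mark a shared donor was not tested. For IL-1ß with PRP lysate these correlations were -0.77, 0.47 and -0.70. The ACS numbers were not used as a pairing, and whether ACS libraries share a donor with others was not tested.

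Alternatives were RLE and TMM factors, a pseudocount of 0.1, no filter, a 2-fold threshold, unadjusted p, only the 2 groups compared, array weights, DESeq2, edgeR, a replicate block and leaving out libraries. limma, its replicate block, only the 2 groups compared, DESeq2 and edgeR were run on simulated counts and read for PRP lysate against IL-1ß. The other alternatives and comparisons were not tested in this way. The simulated counts held no libraries that stand apart along gene span. The versions were 3.58.1 for limma, 1.42.0 for DESeq2 and 4.0.16 for edgeR, run in R 4.3.3, and figures were drawn with matplotlib 3.10.9 under Python 3.11.15.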

Additional observations from a re-analysis of the deposited data

How the results depend on the processing

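Shares of all genes in this paragraph cover both directions unless a direction is named. Of 42 members, the count called for PRP lysate against IL-1ß was 4 as reported. It was 0 with RLE size factors (5.10% of all genes called), with TMM factors (5.07%), at a fold change of at least 2 (3.09%), with only the 2 groups compared (0.482%), with edgeR on recovered reads (3.85%) and with the replicate block (1.86%). It was 22 at an unadjusted p (17.5% of all genes, with 9.85% higher), 34 with array weights (50.7%) and 14 without the 3 libraries that stood apart (10.1%). The 22 and the 14 were higher, and the 34 were 32 higher and 2 lower (FBL and NHP2). The count was 0 to 7 when single libraries were left out. For PRP lysate against MSC-CM the count was 2 as reported, 0 at a fold change of at least 2 (2.61% of all genes), with only the 2 groups compared (1.59%) and with the replicate block (1.64%), 1 with no filter on low values (2.66%), with edgeR (3.11%) and with the replicate block in only the 2 groups compared (5.56%), 8 with DESeq2 (4.90% of all genes), 14 at an unadjusted p (14.5%), 20 with array weights (25.5%), 12 without the 3 libraries (12.95%) and 0 to 4 when single libraries were left out. The other 5 comparisons had 0 members called as reported, and 0 with DESeq2 and edgeR. At an unadjusted p they had 5 (IL-1ß against untreated), 2 (MSC-CM against IL-1ß), 9 (ACS against IL-1ß), 4 (ACS against MSC-CM) and 5 (PRP lysate against ACS). The first 5 were lower and the others higher. Of all genes 12.95%, 5.60%, 20.5%, 13.5% and 5.19% passed in either direction, and 6.5%, 4.9%, 12.1%, 4.74% and 1.8% in the members' direction. With array weights these comparisons had 8, 6, 26, 9 and 1, where 30.1%, 30.3%, 61.7%, 27.8% and 3.46% of all genes were called. The 8 were lower, the 6 were 4 higher and 2 lower, the 26 were 24 higher and 2 lower, and the rest were higher. Without the 3 libraries, IL-1ß against untreated and ACS against IL-1ß had 1 each (3.53% and 6.64% of all genes). ACS against IL-1ß had 1 without IL-1ß replicate 1 (10.1% of all genes) and 0 without any other single library (1.04% to 2.34%). The replicate block, which covers the 12 numbered libraries, left the counts at 0 for IL-1ß against untreated and MSC-CM against IL-1ß. Array weights ran from 0.0307 to 44.2, the highest for IL-1ß replicate 2, and their estimation stopped before it converged. The cause of the other changes was not tested. The replicate block and the fits of single pairs of conditions leave fewer residual degrees of freedom.

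With 3 libraries a condition and a spread that differs between libraries, the smallest log2 fold change of a member called as reported was 0.53. This was not a fixed limit. PNO1, at 0.61 for PRP lysate against IL-1ß, was not called. Without the 3 libraries that stood apart, NPM1 was called at 0.42 in that comparison and TSR1 at 0.37 for PRP lysate against MSC-CM. In the 2 comparisons with members called, the direction was steadier than the calls. For PRP lysate against IL-1ß, 38 and 39 of 42 members were higher with RLE size factors and TMM factors, and for PRP lysate against MSC-CM 41 with either. This did not hold elsewhere. For MSC-CM against IL-1ß, 26 members were higher as reported and 10 and 11 with these factors, with 0 called in each. For ACS against IL-1ß these counts were 31, 26 and 27.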
